A study of Mus musculus with 10 samples.

Results

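Zymogen granules are the storage organelles of the pancreatic acinar cell, and the genes described here encode 10 proteins of these granules. Sycn, Zg16, Gp2 and Cuzd1 encode proteins of the granule content or of the inner side of its membrane, Rab3d, Rab27a and Rab27b encode small GTPases, and Vamp8, Vamp2 and Stx3 encode SNARE proteins. They were chosen by name, as the entries of the count files whose symbol was in this list. All 10 symbols were found among the 24062 genes listed, and all 10 were among the 13882 genes that reached 5 counts in all libraries, which were the genes tested.

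Acinar cells pack digestive enzymes into these granules and release them at the apical membrane when a secretagogue arrives. Rab proteins on the granule surface recruit effectors that bring the granule to its site of release. SNARE proteins of the granule and of the target membrane then pair to drive fusion, either with the apical membrane or with another granule. The proteins inside the granule are made along the secretory pathway together with the enzymes.

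RNA was measured by sequencing in the pancreas of C57BL/6 mice at postnatal day 5, in 5 WT controls and 5 KSR23 mice. KSR23 mice carry the R23 allele, in which the p19 and p40 subunits of the cytokine IL-23 were inserted at ROSA26 behind a floxed STOP signal, together with a Cre recombinase driven by the K14 (keratin 14) promoter, so that IL-23 is directed to keratinocytes and no driver is specific to the pancreas. The comparison asks how RNA of the granule genes in the pancreas differs when IL-23 is made in excess in early life. The study describes the controls as littermates, but the labels give no sex or litter and say nothing more about how replicates were obtained. The p-values therefore measure the spread between these libraries.

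The gene counts of a library summed to 26830235 to 33189132 in WT and to 16715976 (replicate 3) to 57784136 (replicate 5) in KSR23. The check of the labels was Il23a, which encodes p19. It was at 0.0373 to 0.316 CPM, the count scaled to a common library size, in WT libraries, from 1 to 9 counts, and at 0.857 to 1.21 CPM in KSR23 libraries, so the groups did not overlap, although the counts were too few for the gene to enter the test. The tissue carried its acinar markers in both groups: 10 listed acinar markers summed to 169892 to 183851 CPM in WT and 107768 to 134960 CPM in KSR23. Nearly all of this sum came from the genes Cel, Ctrb1, Cpa1 and Cela1, which are also in the list of digestive enzymes below. Of all genes tested, 4299 passed an adjusted p of 0.05, 2250 of them higher and 2049 lower in KSR23. Library scaling by total counts alone gave 4236 genes, 3072 of them higher, and moved the median log2 FC of all genes from -0.01 to 0.09.

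The promoters of Sycn, Gp2 and Cuzd1 are shown because these granule protein genes moved in opposite directions in the same libraries. Each sequence is the 250 bases before the RefSeq start on GRCm38.p6, read 5′ to 3′ on the strand of the gene. Capitals mark matches on either strand to CANNTG, the E-box bound by basic helix-loop-helix factors such as PTF1A, and to TTCCCA or its reverse complement TGGGAA, the core bound by RBPJ and RBPJL, the partners of PTF1A. The windows are chr7:28540635-28540884 on the plus strand for Sycn, chr7:119459273-119459522 on the minus strand for Gp2 and chr7:131322293-131322542 on the minus strand for Cuzd1.
Sycn: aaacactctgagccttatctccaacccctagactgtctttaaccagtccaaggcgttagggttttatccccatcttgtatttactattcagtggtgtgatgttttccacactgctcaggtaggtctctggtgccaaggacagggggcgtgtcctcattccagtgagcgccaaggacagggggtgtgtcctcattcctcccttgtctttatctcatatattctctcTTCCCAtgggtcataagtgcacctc
Gp2: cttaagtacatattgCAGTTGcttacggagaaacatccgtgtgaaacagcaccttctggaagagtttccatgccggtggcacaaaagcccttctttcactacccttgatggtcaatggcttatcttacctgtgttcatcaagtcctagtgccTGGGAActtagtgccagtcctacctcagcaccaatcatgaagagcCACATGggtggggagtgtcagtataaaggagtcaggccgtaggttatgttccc
Cuzd1: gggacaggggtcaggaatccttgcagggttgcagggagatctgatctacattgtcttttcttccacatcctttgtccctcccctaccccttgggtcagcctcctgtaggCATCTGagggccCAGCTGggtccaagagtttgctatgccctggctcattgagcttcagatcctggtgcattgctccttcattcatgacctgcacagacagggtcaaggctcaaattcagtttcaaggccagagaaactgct

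The Sycn window held 1 match to TTCCCA, beginning 25 bases before the start, and no E-box. The Gp2 window held E-boxes beginning 235 and 53 bases before the start and TGGGAA at 98 bases. The Cuzd1 window held E-boxes at 141 and 129 bases and no TTCCCA. None of these matches overlapped another. The STAT motif TTCNNNGAA was in none of the 3 windows. Among 32851 RefSeq windows of the same length, 66.2% held CANNTG, 21.6% held TTCCCA and 7.02% held TTCNNNGAA, so the first of these motifs was in most windows. A match is a description of the letters and not a bound site. Windows were at hand for 7 of the 10 genes.

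Sycn and Zg16 were lower in KSR23 pancreas, while Gp2 and Cuzd1 were higher. Among the Rab genes, Rab27b fell most, by 0.94 on the log2 scale, followed by Rab27a and then Rab3d. The SNARE genes Vamp8, Vamp2 and Stx3 did not pass the test: 0 of the 3 passed in edgeR or in DESeq2, and 0 had an unadjusted p under 0.05 in edgeR. In total 7 of the 10 genes passed an adjusted p of 0.05 in the quasi-likelihood test of edgeR (Benjamini-Hochberg adjustment over all genes tested), against 31% of all genes, with 2 higher (16.2% of all genes) and 5 lower (14.8%). The libraries of the groups did not overlap for 6 of the 10, against 19.4% of all genes. In whole tissue, fewer cells of a type and less RNA per cell cannot be told apart.

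Sycn encodes syncollin, a small protein held on the inner face of the granule membrane. The gene lies at chr7:28540885-28542209 on the plus strand (GENCODE M21, GRCm38). In the WT libraries it was at 3828, 3193, 3944, 3508 and 3605 CPM, and in the KSR23 libraries at 1006, 924, 1070, 969 and 892 CPM. Every KSR23 library was below every WT library, and the spread within each group was small beside the gap. The mean fell from 3616 ± 293 to 972 ± 69.9 CPM (SD, n = 5 in each group), with a log2 FC of -1.89 ± 0.0918 (SE) and an adjusted p of 3.28e-11 by edgeR. This is 3.72-fold lower, with a 95% interval of -2.09 to -1.70 on the log2 scale.

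Zg16 encodes a lectin of the granule matrix that binds the inner granule membrane. It lies at chr7:127050156-127087328 on the minus strand. Its WT values were 2711, 2570, 2846, 2815 and 2318 CPM, against 1132, 1002, 1105, 1363 and 1111 CPM in KSR23. The groups did not overlap, with KSR23 replicate 4 the highest of its group and WT replicate 5 the lowest of its own. The log2 FC was -1.21 ± 0.0964 (SE), or 2.32-fold lower, with an adjusted p of 2.62e-08 by edgeR. The fall of Zg16 was smaller than that of Sycn, and the 95% interval of its log2 FC, from -1.42 to -1.01, lay apart from that of Sycn.

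Gp2 encodes the main glycoprotein of the granule membrane, anchored by a lipid on its inner face and released in part with the secretion. It lies at chr7:119442537-119459285 on the minus strand. It was at 3067, 3536, 2965, 2885 and 3290 CPM in WT and at 9484, 11168, 11121, 10594 and 14126 CPM in KSR23. All 5 KSR23 libraries were above all WT libraries, with replicate 5, the most deeply sequenced, the highest. The mean rose from 3149 ± 265 to 11298 ± 1720 CPM (SD, n = 5 in each group), a 3.59-fold difference with a log2 FC of 1.84 ± 0.116 (SE) and an adjusted p of 1.22e-09 by edgeR. Without any 1 library the log2 FC stayed between 1.75 and 1.89.

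Cuzd1 encodes a membrane protein with CUB and zona pellucida domains that sits in the granule membrane. It lies at chr7:131308554-131322292 on the minus strand. Its WT values were 752, 835, 708, 790 and 689 CPM and its KSR23 values 2135, 1942, 1611, 1739 and 2373 CPM. The groups did not overlap, and the KSR23 libraries were spread more widely, with replicate 5 again the highest. Cuzd1 had a log2 FC of 1.38 ± 0.104 (SE), or 2.60-fold higher, with an adjusted p of 1.40e-08 by edgeR and a 95% interval of 1.16 to 1.59.

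**Figure D1:**
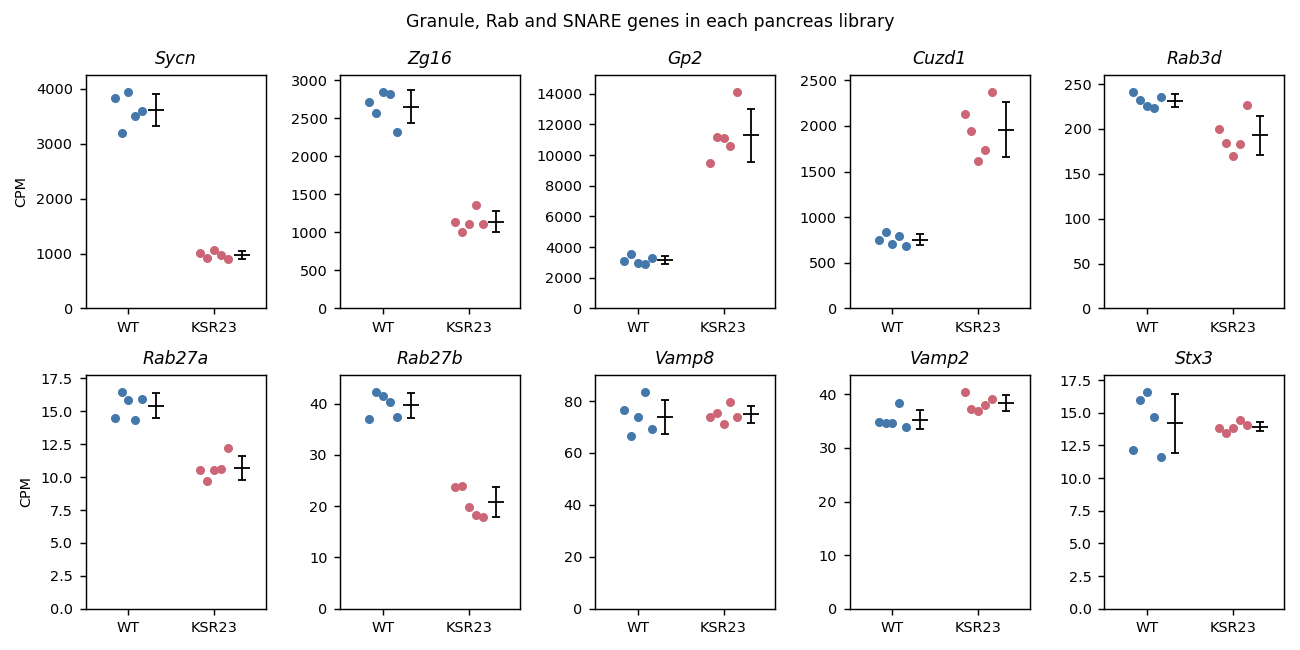
CPM of each gene (vertical axis, from 0) in the 5 WT and 5 KSR23 libraries, with each point 1 library in replicate order and bars the mean ± SD. Sycn, Zg16, Rab27a and Rab27b sit lower and Gp2 and Cuzd1 higher in all KSR23 libraries, while Rab3d, Vamp8, Vamp2 and Stx3 overlap between the groups.

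The plot of CPM by library shows both movements among the granule proteins as gaps between the groups. Together the 4 granule protein genes took 0.933% to 1.01% of gene counts in WT and 1.49% to 1.79% in KSR23. This sum was higher in all KSR23 libraries and does not show the fall of Sycn and Zg16. Within the counts of these 4 genes, Gp2 went from 31.0 ± 2.90% in WT to 73.3 ± 2.83% in KSR23 (SD, n = 5), Sycn from 35.5 ± 2.44% to 6.41% (between 4.82% and 7.31%), and Zg16 from 26.1 ± 1.82% to 7.52 ± 1.29%. Cuzd1 went from 7.43 ± 0.624% to 12.8 ± 1.75%. In WT no gene took most of these counts, whereas in KSR23 Gp2 did.

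The ratio of Gp2 to Sycn within a library does not depend on how libraries are scaled. Its log2 was between -0.41 and 0.15 in WT and between 3.24 and 3.99 in KSR23. The means were -0.20 ± 0.219 and 3.53 ± 0.286 (SD, n = 5), a difference of 3.73 ± 0.161 (SE) on the log2 scale or 13.3-fold. A two-sided exact permutation test of the genotype labels gave p = 0.00794, the smallest it can give, and 0.0159 after Benjamini-Hochberg adjustment over the 4 ratios tested. Gp2 and Sycn each separated the groups, in opposite directions, so this p had to be the smallest and adds no further support.

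Rab3d encodes a Rab of the mature zymogen granule surface. It lies at chr9:21907491-21918192 on the minus strand. It was at 241, 232, 226, 223 and 236 CPM in WT and at 200, 184, 170, 183 and 227 CPM in KSR23. The groups overlapped, since KSR23 replicate 5 was above WT replicates 3 and 4, while the other KSR23 libraries were below all WT libraries. This left a log2 FC of -0.26 ± 0.0726 (SE), with an adjusted p of 0.0104 by edgeR. With library size alone as the scaling the log2 FC was -0.17 and the adjusted p 0.0684 by edgeR, so the call was lost there.

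Rab27b encodes a further granule Rab that acts in regulated secretion from acinar cells. It lies at chr18:69979131-70141605 on the minus strand. WT libraries were at 37.0, 42.2, 41.5, 40.3 and 37.4 CPM and KSR23 libraries at 23.7, 24.03, 19.8, 18.3 and 17.9 CPM. The groups did not overlap, and within KSR23 replicates 1 and 2 stood above the other three. For Rab27b the log2 FC was -0.94 ± 0.0915 (SE), or 1.91-fold lower, with an adjusted p of 3.82e-07 by edgeR and a 95% interval of -1.13 to -0.74.

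Rab27a encodes the close paralog of Rab27b, best known for the transport of lysosome-related organelles. It lies at chr9:73044854-73097629 on the plus strand. It was at 14.5, 16.5, 15.9, 14.3 and 15.9 CPM in WT and at 10.5, 9.72, 10.5, 10.6 and 12.2 CPM in KSR23, resting on 413 to 479 counts in a WT library and 188 to 682 in a KSR23 library. Every KSR23 library was lower than every WT library. The fitted log2 FC was -0.52 ± 0.0931 (SE), with an adjusted p of 0.00036 by edgeR. Of the 75-base windows of its longest coding transcript 97.2% occurred in no other gene, and 3.84% of its exon bases overlapped Gm27186 on the same strand. For the other 9 genes all such windows were unique.

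Within the Rab genes the fall was unequal. The log2 ratio of Rab27b to Rab3d was between -2.70 and -2.44 in WT and between -3.66 and -2.93 in KSR23, a difference of -0.67 ± 0.138 (SE) with an exact permutation p of 0.00794 (0.0159 adjusted over the 4 ratios). The log2 ratio of Rab27b to Rab27a averaged 1.36 ± 0.0921 in WT and 0.94 ± 0.298 in KSR23 (SD, n = 5), a difference of -0.42 ± 0.14 (SE) with an exact permutation p of 0.0159 (0.0212 adjusted). For this pair of paralogs the groups overlapped, with the highest KSR23 library at 1.30 and the lowest WT library at 1.23.

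Vamp8 encodes the vesicle SNARE needed for most regulated secretion from acinar cells. It lies at chr6:72385223-72390703 on the minus strand. It was at 76.6, 66.4, 73.8, 83.4 and 69.4 CPM in WT and at 74.0, 75.5, 71.0, 79.7 and 73.9 CPM in KSR23. The KSR23 values lay inside the WT range. The log2 FC was 0.02 with a 95% interval of -0.13 to 0.16 and an adjusted p of 0.868 by edgeR, and its sign changed when WT replicate 2, WT replicate 5 or KSR23 replicate 4 was left out.

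Vamp2 encodes a vesicle SNARE shared with synapses and present on part of the granules. It lies at chr11:69088490-69092384 on the plus strand. Its values were 34.8, 34.5, 34.6, 38.3 and 33.9 CPM in WT and 40.4, 37.3, 36.9, 37.97 and 39.2 CPM in KSR23. WT replicate 4 lay among the KSR23 libraries and the other WT libraries lay below them all. Its log2 FC was 0.12 with a 95% interval of -0.02 to 0.26 and an adjusted p of 0.173 by edgeR. With library size alone as the scaling it was 0.22 and passed, with an adjusted p of 0.0268 by edgeR.

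Stx3 encodes syntaxin 3, a SNARE found on granule membranes and on the apical plasma membrane. It lies at chr19:11775118-11819403 on the minus strand. WT libraries were at 12.1, 16.0, 16.6, 14.7 and 11.6 CPM and KSR23 libraries at 13.8, 13.5, 13.9, 14.4 and 14.1 CPM. The KSR23 libraries lay close together inside the wider WT range. The log2 FC was -0.03 with a 95% interval of -0.25 to 0.19 and an adjusted p of 0.864 by edgeR, and it changed sign with library size alone and without WT replicate 2 or WT replicate 3. The log2 ratio of Vamp8 to Vamp2 differed by -0.10 ± 0.0503 (SE), with an exact permutation p of 0.0873 before and after adjustment over the 4 ratios. It was -0.13 both without WT replicate 2 and without KSR23 replicate 4, with adjusted exact permutation p-values of 0.0317 and 0.0476, so the call depended on single libraries.

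**Figure D2:**
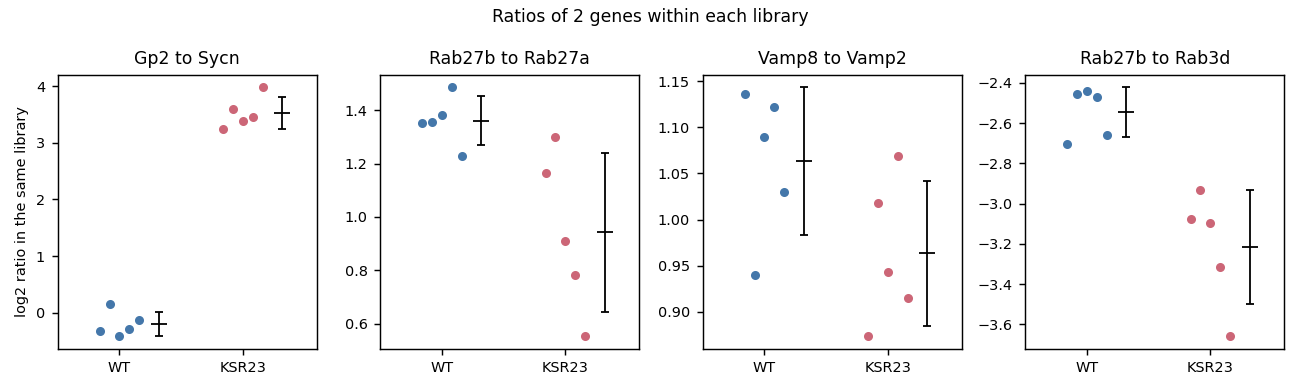
Log2 ratio of 2 genes in the same library (vertical axis) for 5 WT and 5 KSR23 libraries, with points the libraries and bars the mean ± SD. Gp2 to Sycn is separated by 3.73 between the group means, Rab27b to Rab3d by -0.67, and the other 2 ratios overlap between the groups.

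**Figure D3:**
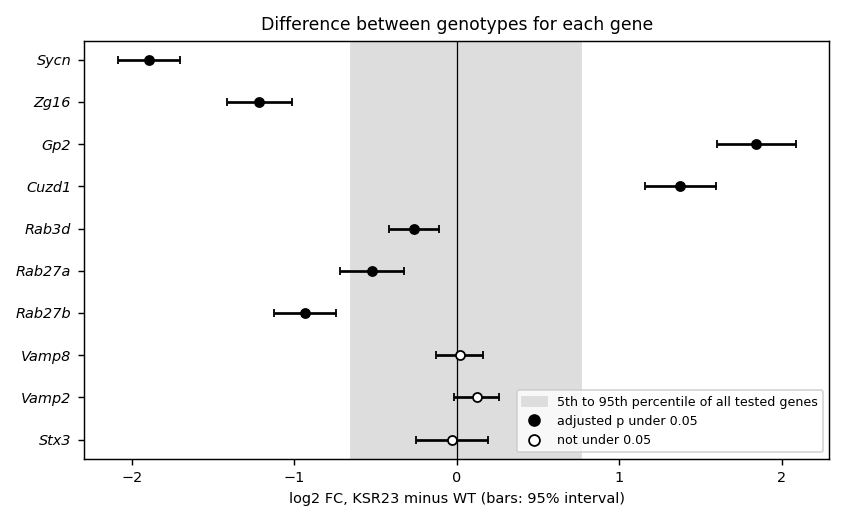
Log2 FC of KSR23 against WT (horizontal axis) for the 10 genes, with bars the 95% interval, filled points at an adjusted p under 0.05, and grey the range from the 5th to the 95th percentile of all genes tested (-0.65 to 0.76). The 4 granule protein genes and Rab27b lie outside the grey range and the other 5 genes inside it.

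The plot of log2 FC sets the granule protein genes beside the Rab and SNARE genes. The log2 FC of the 4 granule protein genes was -1.89, -1.21, 1.38 and 1.84. Among the 6 Rab and SNARE genes it lay between -0.94 for Rab27b and 0.12 for Vamp2, and none of these 6 passed as higher, except Vamp2 with library size alone as the scaling. Their summed share of gene counts, before any scaling, was 0.0387% to 0.0408% in WT and 0.0345% to 0.0392% in KSR23, so the groups overlapped. Their summed CPM was 404 to 416 in WT and 322 to 384 in KSR23, so on this scale they did not overlap. The 95% intervals of Zg16 (-1.42 to -1.01) and Rab27b (-1.13 to -0.74) overlapped, and the difference between the classes was not tested.

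The genes also differed widely in level. Per kilobase of the longest coding transcript, WT levels were 6503 for Sycn, 3668 for Zg16, 1580 for Gp2 and 335 for Cuzd1, in CPM per kb, and the ranges over the libraries of neighbours in this order did not overlap. Rab3d followed at 59.6, Vamp8 at 35.6 and Vamp2 at 15.98 CPM per kb, again without overlap. Rab27b at 5.76, Stx3 at 5.05 and Rab27a at 4.86 CPM per kb closed the order, and in it each overlapped the next. In KSR23 the order at the top changed. Gp2 was first at 5669, Sycn at 1749 and Zg16 at 1580 CPM per kb overlapped, and Cuzd1 was at 869. Rab3d at 49.6, Vamp8 at 36.0 and Vamp2 at 17.4 CPM per kb kept their places without overlap. Stx3 at 4.95 CPM per kb stood above Rab27a at 3.38 and Rab27b at 3.01, and the last pair overlapped. Length matters for this order: with the shortest coding transcript (545 in place of 3886 bases) Rab3d would be at 425 CPM per kb in WT, above Cuzd1, and Stx3 (16.3) would stand above Rab27b (14.9).

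**Figure D4:**
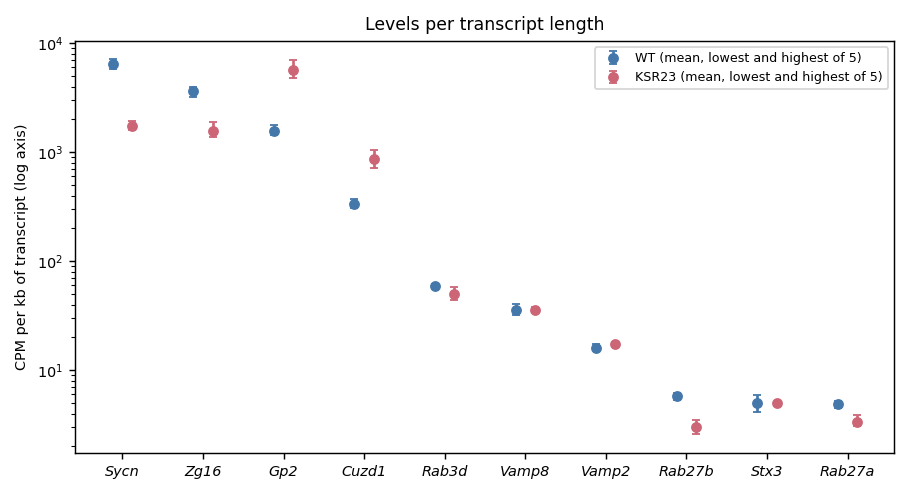
CPM per kb of the longest coding transcript (vertical log axis) for the 10 genes in WT and KSR23, with points the mean and bars the lowest and highest of 5 libraries. Gp2 goes from the third place in WT (1580) to the first in KSR23 (5669), and the Rab and SNARE genes lie below the granule proteins in both groups.

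Other genes were read from lists of Rab and Rab effector genes, SNARE and fusion genes, other granule-related genes and digestive enzymes. Of 28 Rab and effector genes tested (30 listed), 3 were higher, 8 were lower and 17 did not pass, so 39.3% were called against 31% of all genes tested, a share near the background. The median log2 FC was -0.03, against -0.01 over all genes tested. Without WT replicate 2, and without KSR23 replicate 4, 7 passed in place of 11. The lowest were Sytl4, which encodes the Rab27 effector granuphilin, with a log2 FC of -1.01 (from 14.5 ± 1.19 to 7.16 ± 1.46 CPM; adjusted p 1.12e-05 by edgeR), the related Sytl5 at -0.92 (adjusted p 0.000539 by edgeR) and Rab26, a Rab of secretory granules, at -0.57 (adjusted p 6.16e-05 by edgeR). The highest were Mlph, the Rab27a effector melanophilin, at 0.96 (adjusted p 4.98e-05 by edgeR), and the less certain Unc13d at 0.98 and Rab3b at 0.46. Unc13d, a priming factor that binds Rab27, and Rab3b overlapped between the groups, with adjusted p-values of 0.0294 and 0.0364 by edgeR. Leaving out single libraries ended the call of Unc13d for 4 of the 10 (WT replicates 2 and 5, KSR23 replicates 3 and 4; 0.0516 to 0.074), and 9 of 18 alternatives ended that of Rab3b. Rap1a and Rap1b, small GTPases also found on granules, were at -0.32 and -0.25, with adjusted p-values of 0.0112 and 0.0268 by edgeR, overlapped between the groups, and were no longer called with library size alone (0.0733 and 0.181). Rap1b also lost its call without WT replicate 2, 3 or 4 or KSR23 replicate 5 (0.0542 to 0.082).

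Of 27 SNARE and fusion genes tested (30 listed), 2 were higher, 8 were lower and 17 did not pass, which is 37.0% called and again near the 31% of all genes tested. The median log2 FC of this list was -0.06. Without WT replicate 2, and without KSR23 replicate 3, 6 passed in place of 10. Anxa13, an annexin of epithelial apical transport, fell by 2.20 on the log2 scale, from 23.5 ± 2.12 to 5.17 ± 1.04 CPM (SD, n = 5; adjusted p 3.19e-10 by edgeR). Syt3, a synaptotagmin, was at -0.96 (adjusted p 9.21e-05 by edgeR) and Stxbp6, a regulator that binds SNARE complexes, at -0.55 (adjusted p 0.000107 by edgeR). Stxbp2, which encodes the syntaxin-binding protein Munc18-2, rose by 0.32 on the log2 scale, from 58.7 ± 3.01 to 73.4 ± 4.20 CPM (adjusted p 0.00106 by edgeR). The other higher gene, Stx6, had a log2 FC of 0.18 and an adjusted p of 0.0499 by edgeR, and 16 of 18 alternatives ended its call. Vamp7 was listed at 0 in all 10 libraries. No position was found for this symbol in GENCODE M21, so the 0 cannot be read as absence of its RNA.

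Of 15 other granule-related genes, 2 were higher, 8 were lower and 5 did not pass, or 66.7% called against 31% of all genes tested (16.2% higher, 14.8% lower). The median log2 FC of the list was -0.26. The list is wider than granule proteins, since it also holds the transcription factor gene Bhlha15 and Itpr3, Sort1, Scg2, Chgb, Tmed6 and Tmed11. These values therefore describe the list and not the granule alone. Tmed11, a member of the p24 family of secretory cargo receptors, fell from 55.7 ± 3.34 to 5.42 ± 2.30 CPM (SD, n = 5), a log2 FC of -3.38 with an adjusted p of 5.24e-10 by edgeR. Klk1, a tissue kallikrein, was at -1.42 (adjusted p 2.00e-08 by edgeR) and Tmed6, a further p24 protein, at -0.66 (adjusted p 1.92e-06 by edgeR). The genes that rose were Dmbt1, a secreted scavenger receptor glycoprotein, at 1.97 (from 2164 ± 298 to 8500 ± 2604 CPM; adjusted p 1.16e-07 by edgeR), and the membrane mucin gene Muc1 at 0.57 (adjusted p 2.06e-05 by edgeR). The size of the Dmbt1 difference was near that of Gp2.

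Of the 19 digestive enzyme genes, the cargo of the granule, 15 were lower, 2 were higher and 2 did not pass, or 89.5% called against 31% of all genes tested (14.8% lower, 16.2% higher). Their median log2 FC was -0.66. Ctrl (chymotrypsin-like) was at -2.90, Cela1 (an elastase) at -2.53 and Ctrc (chymotrypsin C) at -2.11, with adjusted p-values of 1.81e-10, 1.37e-11 and 3.52e-08 by edgeR. In WT the mean was 8699 CPM for Ctrl and 13931 CPM for Cela1, but 13.3 CPM for Ctrc (3.07 CPM in KSR23). The annotated span of Ctrc encloses that of Cela2a on the same strand, and reads that fit both genes are given to neither. Whether this lowered the counts of Ctrc was not tested. The trypsinogen genes Prss3 and Prss2 were at 0.93 and 0.37, with adjusted p-values of 2.13e-06 and 0.0181 by edgeR. Prss2 was not called without WT replicate 2 (0.0516) or WT replicate 5 (0.0604). Trypsinogen genes have near-identical copies, and reads that align to more than 1 place were not counted. The share of such alignments over whole libraries differed between the groups and is given below. Its part in these differences was not tested. Sycn and Zg16 moved in the direction of most of these enzymes, and Gp2 and Cuzd1 in that of Dmbt1.

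**Figure D5:**
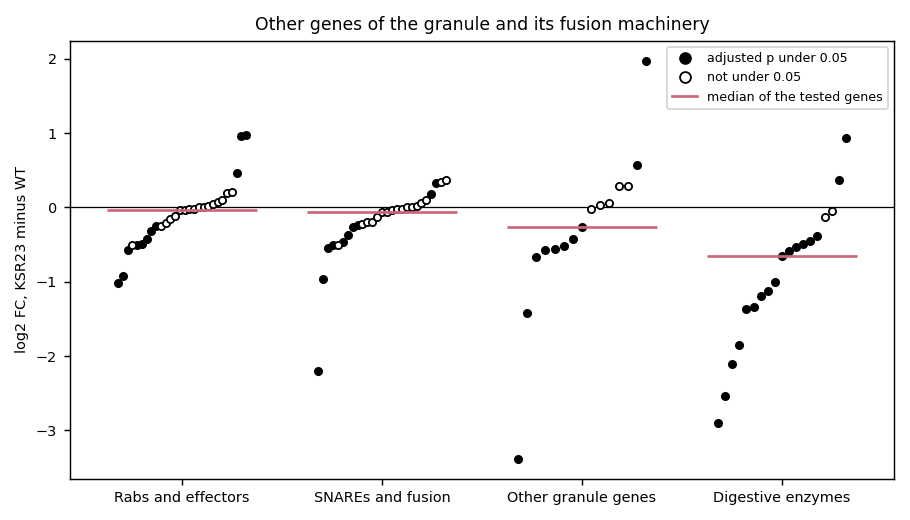
Log2 FC of KSR23 against WT (vertical axis) for the tested genes of 4 lists, sorted within each list, with filled points at an adjusted p under 0.05 and the red line the median. The medians are -0.03, -0.06, -0.26 and -0.66 from left to right, and the enzymes are mostly below 0.

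The genes whose pattern over the 10 libraries was most like that of Sycn were Ttr (transthyretin, a carrier of thyroid hormone and retinol), Aldh1a7 (an aldehyde dehydrogenase) and Slc38a5 (a glutamine transporter). Their root mean square difference from Sycn, in log2 CPM centred on each gene's mean, was 0.144, 0.192 and 0.202, against a median of 0.971 over all genes tested. The genes nearest to Gp2 were Penk (proenkephalin), Cpn1 (a subunit of carboxypeptidase N) and Lgals9 (galectin-9), at 0.179, 0.195 and 0.222 against a median of 0.955. The log2 FC of the first 3 was -2.09, -2.17 and -2.05, and that of the others 1.77, 1.71 and 2.07. These distances are a description, and all points share the same libraries.

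Cell type markers moved with genotype beside these results, and their counts stand against 16.2% of all genes tested called higher and 14.8% called lower. Of the 10 acinar markers 7 were lower and 3 did not pass, and Amy2b, Cela1, Cel, Cpa1 and Ctrb1 are in both this list and that of the enzymes. Of the 10 duct markers 7 were higher and 3 did not pass, with sums of 1419 to 1612 CPM in WT and 2398 to 2638 CPM in KSR23. The 3 were Krt19 (log2 FC -0.05), Onecut1 (-0.18) and Car2 (0.19). The study described more KRT19-stained cells in KSR23 pancreas, which is protein and not RNA. Of 12 islet markers 7 were lower and 1 higher, with sums of 8305 to 11568 CPM in WT and 5165 to 6511 CPM in KSR23. Of 11 leukocyte markers tested 7 were higher and 1 lower, with sums of 106 to 129 CPM in WT and 145 to 355 CPM in KSR23. The upper end was KSR23 replicate 3, with S100a8 at 76.4, S100a9 at 73.5 and Mpo at 37.7 CPM. In the other KSR23 libraries these genes were at most at 17.6, 16.7 and 9.39 CPM. Goblet and intestinal markers bear on Gp2 and Zg16, which intestinal epithelium also expresses. Of 6 tested 4 were higher and 2 did not pass, and the 10 listed summed to 24.1 to 34.6 CPM in WT and 65.3 to 137 CPM in KSR23. Agr2 alone made up most of the sum in each KSR23 library, at 35.9 to 115 CPM. The 2 that did not pass were Fcgbp (log2 FC -0.15, adjusted p 0.702 by edgeR) and Lgals4 (0.37, adjusted p 0.403 by edgeR). Among the higher genes Clca1 was at 1.56 ± 0.193 CPM in WT and 14.7 ± 4.71 CPM in KSR23 (SD, n = 5). Agr2 was at 17.7 ± 4.06 and 76.1 ± 31.97 CPM, and Spink4 at 1.27 ± 0.245 and 3.27 ± 0.739 CPM. Muc2 had at most 4 counts in a WT library and at most 5 in a KSR23 library, and Cdx2 had 0 in all WT libraries and at most 3 in a KSR23 library, too few to be tested. Of 5 mast cell markers tested 0 passed in edgeR and 0 in DESeq2, and 1 had an unadjusted p under 0.05, with sums of 54.9 to 62.9 CPM in WT and 40.7 to 70.6 CPM in KSR23. Neuronal markers stand beside Vamp2, which neurons also express. Of 8 tested 0 passed in edgeR and 1 in DESeq2, and 2 had an unadjusted p under 0.05, with sums of 23.8 to 27.2 CPM in WT and 24.8 to 32.8 CPM in KSR23. The share of alignments that were not unique, which were not counted, was 49.6% to 53.7% in WT and 38.5% to 42.5% in KSR23. The part of these differences in the results above was not tested.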

How the data were processed

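Per the labels and the study's methods, RNA of whole pancreas was primed with oligo-dT, amplified, and sequenced as single reads of 75 bases without molecular identifiers. The authors aligned reads to mm10 with TopHat2 2.1.0 and deposited raw counts per gene from HTSeq 0.6.1p1 by strict intersection (versions from the submitters' processing notes). The annotation file and strand setting are not given in the sources used here. Each file also holds 5 tallies of reads given to no gene, and these stayed out of library sizes and tests.

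Genes with at least 5 counts in each of the 10 libraries were tested with edgeR 4.0.16 in R 4.3.3 (TMM scaling, quasi-likelihood F test, Benjamini-Hochberg adjustment over 13882 genes). CPM uses TMM-scaled library sizes, and ratios use log2 CPM with a prior count of 2. An SE was derived from the log2 FC and the F statistic, as |log2 FC| over the root of F. The fit was tested on simulated data. Ratios were compared by two-sided exact permutation of the genotype labels. Libraries were grouped by their labels. None of the 20 pairs of libraries within a group agreed within sampling noise (lowest chi-square per degree of freedom 11.8). A floor of 3 counts was 0.0536 to 0.168 CPM and covers counting error alone.

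Members and lists were chosen with earlier results of these data known. Named are the members, the 3 lowest and 3 highest called genes of each of 4 lists, Rap1a and Rap1b, the 3 genes nearest to Sycn and to Gp2, markers beside results, and Il23a. Vamp7, Cela2a, Bhlha15, Itpr3, Sort1, Scg2, Chgb, Clca1, Agr2, Spink4, Muc2 and Cdx2 were named after their values were seen. So were Fcgbp, Lgals4, S100a8, S100a9, Mpo, Krt19, Onecut1 and Car2. Emr1, Spink3 and Stxbp3a stood for Adgre1, Spink1 and Stxbp3. Positions and lengths are from GENCODE M21. Alternatives tried were DESeq2 1.42.0, edgeR's likelihood ratio test, 3 other scalings, 2 other filters, the replicate block, the prior count and each library left out. Transcript length was varied after seeing the data.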

Additional observations from a re-analysis of the deposited data

Results flagged for a closer look

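Vamp2 in WT replicate 4 was at 38.3 CPM, against 33.9 to 34.8 CPM in the other WT libraries, a gap beyond Dixon's 95% limit for 5 values. It was the only such value among 28 groups of 5 libraries examined, and chance gives about 1.4. Without this library the groups did not overlap for Vamp2. Its log2 FC was then 0.15, with an adjusted p of 0.117 by edgeR, and over the alternatives its adjusted p ranged from 0.0268 to 0.346.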

How the results depend on the processing

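Under 18 alternatives, 7 of the 10 genes were called each time, and the directions of Sycn (-1.94 to -1.80), Zg16 (-1.29 to -1.12), Gp2 (1.75 to 1.93), Cuzd1 (1.30 to 1.47), Rab27a (-0.57 to -0.43) and Rab27b (-0.99 to -0.84) and their calls held. With library size alone the 7 included Vamp2 (0.22) in place of Rab3d (-0.17), and Stx3 reversed to 0.064. With 1 library left out at a time, Vamp8 ranged from -0.018 to 0.063 (-0.018 without WT replicate 2, -0.012 without WT replicate 5, -0.005 without KSR23 replicate 4) and Stx3 from -0.10 to 0.03 (0.017 without WT replicate 2, 0.028 without WT replicate 3). All genes called numbered 3497 to 4173 in these fits, Rab and effector genes 7 to 10, and SNARE and fusion genes 6 to 9, with fewer samples by construction. Ratios ranged from 3.61 to 3.82 for Gp2 to Sycn, -0.51 to -0.32 for Rab27b to Rab27a, -0.13 to -0.078 for Vamp8 to Vamp2 and -0.74 to -0.56 for Rab27b to Rab3d. After the mean of each group was taken from each gene, log2 CPM of same-numbered WT and KSR23 libraries correlated between -0.11 and 0.066. Libraries of different numbers correlated between -0.11 and 0.13, so the numbers gave no sign of pairing. Whether same-numbered libraries shared a litter or a batch cannot be read from this. With the replicate number as a block 3749 genes were called, 15 of the digestive enzymes in place of 17 (Prss2 at 0.37, adjusted p 0.0826 by edgeR). In the block test of ratios, whose smallest p is 0.0625 over 32 sign changes, 3.73 for Gp2 to Sycn, -0.42 for Rab27b to Rab27a and -0.67 for Rab27b to Rab3d each had an exact adjusted p of 0.0833. That design cannot pass 0.05. Other causes were not tested. The minimum of 5 counts in each library kept Il23a and the lowest markers out of the test, whereas all 10 genes passed it.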
